A study of Drosophila melanogaster with 3 samples.

Results

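The dpr, DIP, beat and side genes encode cell-surface and secreted proteins with immunoglobulin domains that neurons and their targets use to recognise each other. They were taken by gene symbol: every protein-coding gene named side, or dpr, DIP, beat or side with a number or letter, 54 of the 13945 protein-coding genes on the main chromosomes. The set held 21 dpr genes, 11 DIP genes, 14 beat genes and 8 side genes. Combgap (cg), a zinc-finger protein that binds GT-rich DNA and has been tied to Polycomb recruitment, was mapped on chromatin by immunoprecipitation and sequencing (ChIP-seq). The samples were 3 biological replicates of a single group: whole Drosophila melanogaster embryos of the cg-GFP strain, males and females pooled, 0 to 24 h old. In this strain Combgap carries green fluorescent protein (GFP) at its C-terminal end, the protein was pulled down through that tag with an anti-GFP antibody, and sonication gave fragments of 200 to 800 bp. There was no second genotype, treatment or stage, and 1 control alignment served all replicates, so the comparisons here are between genes and between replicates. The cells of all embryonic tissues and ages were mixed, no expression values were measured, and binding in a few cells cannot be told apart from weak binding in many.

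Dpr proteins bind DIP proteins (Dpr-interacting proteins) on the facing membrane, and most Dprs and DIPs have more than one partner. Beat proteins (Beaten path) bind Side proteins (Sidestep) in a like network: motor axons that carry Beat-Ia follow Side on the cells along their route to the muscles. Many of these genes are transcribed in small and differing sets of neurons, and in the visual system the partners often mark neurons that form synapses with each other.

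The first sequences lie under the highest-ranking Combgap summits at 7 of these genes, 1 per gene, and show where GT-rich DNA was and was not there. A summit is the base of highest signal in a peak, and its rank is its place by signal among the 7913 summits that passed the authors' filter on agreement between replicates (the thresholded list, by irreproducible discovery rate, IDR). All are the plus strand of the dm6 build, 5′ to 3′, centred on the summit. Capitals mark runs of 6 or more bases in which G and T, or A and C, alternate. Windows that touch a 5′ UTR are cut to 29 bases.
dpr14, rank 460, chrX:7908799-7908899: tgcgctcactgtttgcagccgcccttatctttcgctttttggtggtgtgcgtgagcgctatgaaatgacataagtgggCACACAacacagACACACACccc
beat-Ib, rank 538, chr2L:15913387-15913587: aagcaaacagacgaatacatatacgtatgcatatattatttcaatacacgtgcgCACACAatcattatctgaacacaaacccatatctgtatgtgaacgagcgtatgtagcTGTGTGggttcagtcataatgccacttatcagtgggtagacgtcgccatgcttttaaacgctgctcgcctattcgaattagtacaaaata
side-IV, rank 1556, chr3R:13450597-13450625: CACACACACACcgaaacacggACACACtc
side-VII, rank 2730, chr3R:9739579-9739607: tatatctaagttaaaggatattttcgagg
dpr19, rank 2793, chr2L:10376635-10376663: CACACACAgaggccgcGTGTGTGaaaata
DIP-alpha, rank 3393, chrX:3558504-3558704: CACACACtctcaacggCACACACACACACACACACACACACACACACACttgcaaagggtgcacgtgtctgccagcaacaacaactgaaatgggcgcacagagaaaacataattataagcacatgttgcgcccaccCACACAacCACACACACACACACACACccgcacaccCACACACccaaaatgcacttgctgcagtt
dpr18, rank 5475, chrX:16068154-16068354: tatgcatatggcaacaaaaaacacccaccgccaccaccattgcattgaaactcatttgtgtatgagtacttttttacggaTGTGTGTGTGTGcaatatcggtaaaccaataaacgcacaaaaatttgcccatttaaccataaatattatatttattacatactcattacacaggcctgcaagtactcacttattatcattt

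The second set shows the opposite case: introns that hold a long GT run, which is the kind of DNA Combgap is known to bind, and no thresholded summit near it. The 3 runs are among the longest in these genes with no summit within 1 kb in the thresholded list or in the list called on the pooled alignments, and each window is centred on its run.
DIP-eta, run of 28 bases, chr2L:5605057-5605157: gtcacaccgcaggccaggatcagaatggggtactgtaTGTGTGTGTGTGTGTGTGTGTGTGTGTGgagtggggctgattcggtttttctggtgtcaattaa
dpr6, run of 27 bases, chr3L:10028347-10028447: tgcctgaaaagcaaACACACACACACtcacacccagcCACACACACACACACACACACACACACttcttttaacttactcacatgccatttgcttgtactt
dpr11, run of 27 bases, chr3R:6566976-6567076: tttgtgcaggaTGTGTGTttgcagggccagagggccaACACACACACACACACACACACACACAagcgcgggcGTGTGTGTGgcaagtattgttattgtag

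Most of these genes had no thresholded Combgap summit, which also holds for protein-coding genes as a whole. A thresholded summit lay within 1 kb of an annotated start site of 7 of the 54 genes (13.0%), where 22.9% of all protein-coding genes had one. A summit lay in the gene body, from the first to the last annotated base, of 10 (18.5%), beside 17.9% of all protein-coding genes. Either kind was found at 12 of the 54 (22.2%), beside 25.2% of all. The 12 genes were dpr8, dpr10, dpr13, dpr14, dpr18, dpr19, DIP-alpha, DIP-eta, beat-Ib, beat-IIIc, side-IV and side-VII. The other 42 had neither. The body share was thus close in value to that of all genes, and the start-site share was lower. With gene bodies extended by 2 kb, 13 of the 54 genes had a summit, beside 33.1% of all genes. No test was made of these shares, since the genes are whole families and not a sample, and neighbours of one cluster share their surroundings.

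**Figure D1:**
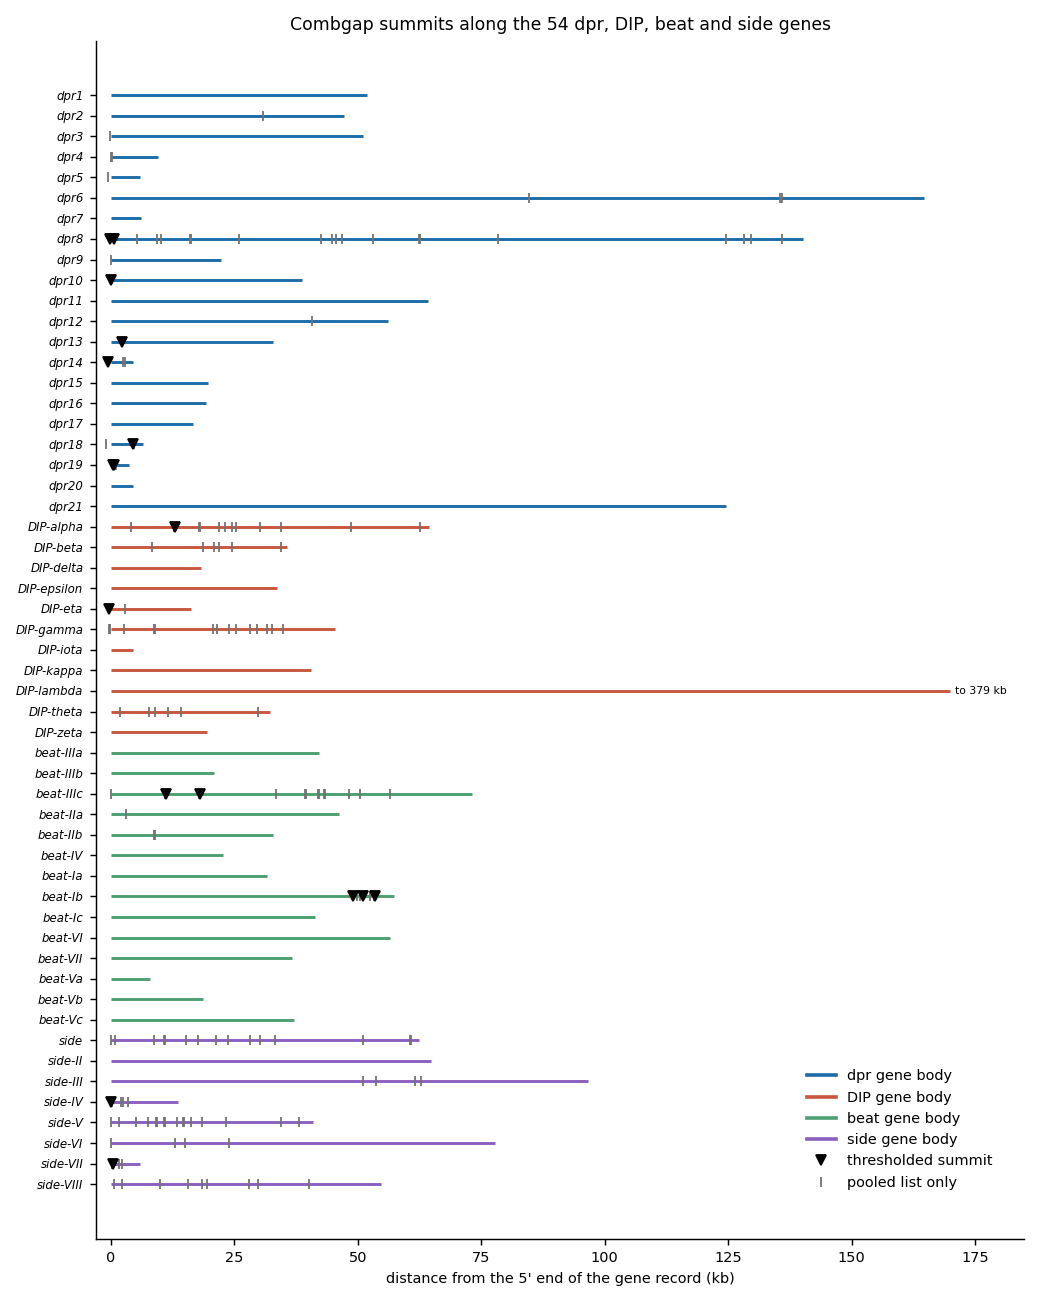
Each line is 1 gene body, drawn from the 5′ end of the gene record (x axis, distance in kb), coloured by family; triangles are thresholded summits and ticks are summits found only in the list called on the pooled alignments. Triangles stand at 12 of the 54 genes, and 25 lines carry no mark at all; DIP-lambda is cut off and runs to 379 kb.

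The genes are long, and set beside genes of their own length a smaller share held a summit in every class from 5 kb upward. Their median length was 36.2 kb (3.74 to 379 kb), beside 2.17 kb for all protein-coding genes, and a long gene has more room for a summit. In all protein-coding genes the share with a summit in the body was 6.42% under 5 kb, 46.1% from 5 to 20 kb, 65.7% from 20 to 50 kb, 70.1% from 50 to 100 kb and 72.3% over 100 kb. In the dpr, DIP, beat and side genes the counts in these classes were 1 of 4, 3 of 14, 2 of 19, 3 of 13 and 1 of 4. The share thus rose with length over all genes and did not over these.

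Over 20 kb, 36 of the 54 genes remained, and 6 of them (16.7%) had a thresholded summit in the body, where 67.2% of the 1013 protein-coding genes of that length had one. This length limit was set after values had been seen. The 6 were dpr8, dpr10, dpr13, DIP-alpha, beat-Ib and beat-IIIc: 3 of 11 dpr genes, 1 of 7 DIP genes, 2 of 12 beat genes and 0 of 6 side genes. At start sites the count was 2 of 36 (5.56%; dpr8 and dpr10), beside 55.3% of all genes over 20 kb. By class it was 1 of 19 from 20 to 50 kb, where 55.7% of all genes had a start-site summit, 0 of 13 from 50 to 100 kb (54.9% of all) and 1 of 4 over 100 kb (53.0%). From 5 to 20 kb it was 3 of 14, beside 47.3% of all genes. The shortest genes went the other way: under 5 kb 2 of 4, dpr14 and dpr19, had a start-site summit, beside 14.0% of all genes. The dpr14 summit was nearer to the start of another gene, spidey, at 82 bp, than to that of dpr14, at 563 bp. Any start site of a gene counted, and the median number was 1 in the 54 genes and 2 in the other genes over 20 kb.

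**Figure D2:**
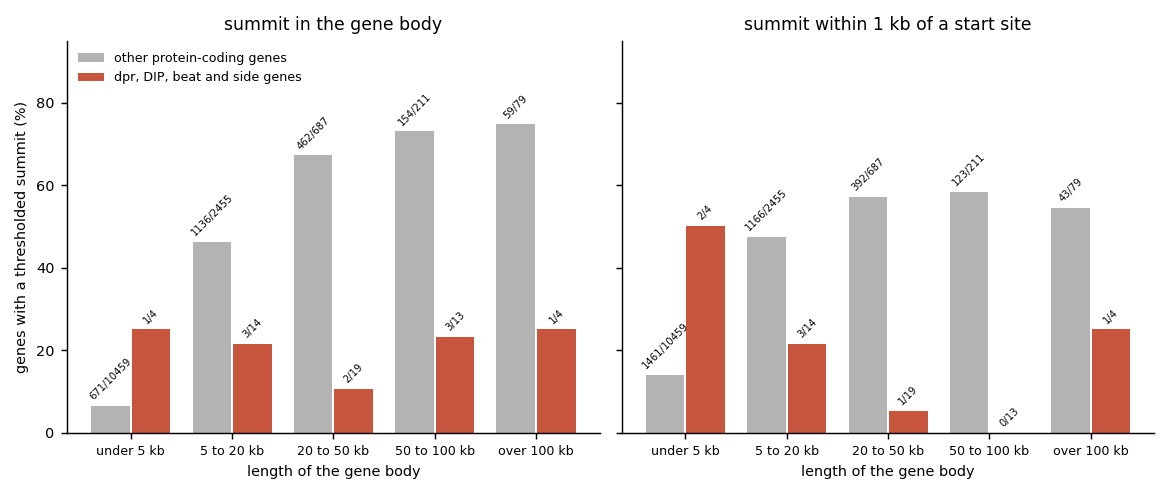
Share of genes (y axis, percent) with a thresholded summit in the gene body (left) or within 1 kb of a start site (right), by class of gene length (x axis), with counts over the bars; grey is every other protein-coding gene and red the dpr, DIP, beat and side genes. The grey bars on the left climb with length, and in both panels from 5 kb upward every red bar stands lower than the grey bar beside it and the red bars rest on 4 to 19 genes.

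The lower share was present in each replicate, without the IDR filter. Among the 5000 highest peaks of a replicate, 2 of the 36 long genes had a summit in the body in every one of the 3 lists (5.56% ± 0.0, SD, n = 3). The number over all 1013 long genes was 547, 530 and 532 (52.9% ± 0.917, SD, n = 3). The difference was larger than the spread between replicates. That spread measures how repeatably the same genes were called and not how genes differ from each other. At start sites, 4 of the 54 genes had a peak among the 5000 highest in each replicate, beside 17.9% ± 0.197 (SD, n = 3) of all protein-coding genes. These were dpr14, dpr19, side-IV and side-VII each time (7.41%), where 17.0% of all genes passed in all 3 lists.

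Per length of DNA, the 2.52 Mb of these gene bodies held 14 thresholded summits, or 0.555 per 100 kb. The merged bodies of all protein-coding genes held 6.8 per 100 kb, and those of the other genes over 20 kb held 6.24. By family the density was 0.952 in beat, 0.674 in dpr, 0.48 in side and 0.145 in DIP genes, which rests on 5, 6, 2 and 1 summits. Away from start sites of any gene by more than 1 kb, 4 summits were left (0.173 per 100 kb), beside 3.78 over all gene bodies. The density was thus below that of all gene bodies both with and without the DNA around start sites. Leaving out DIP-lambda and dpr21, which lie near the centromere of 2R with 32.2% and 27.1% of their bases masked as repeats, raised the density to 0.694.

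Among the dpr genes, which encode the Dpr receptors, the highest summit was at dpr14. It lay at base 7908849 of the X, ranked 460 in the thresholded list and 457, 542 and 432 in the 3 replicates (mean 477 ± 57.7, SD). The summit was 563 bp upstream of dpr14, a gene of 4.58 kb, and 82 bp upstream of spidey, which is transcribed the other way. It therefore counts at both genes and was nearer to spidey. GTGTGT was present within 100 bp.

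A broad peak covered the 5′ end of dpr19 (2L, 10376333 to 10377554) with summits 171 and 383 bp inside the gene. Their ranks were 2793 and 4699, and the peak held ranks 2889, 3574 and 2652 in the replicates (3038.3 ± 479, SD). A GT run of 22 bases, outside the 29 bases printed above, was centred 49 bp from the higher summit. This summit and that of dpr14 were the only dpr summits among the 3956 highest of the thresholded list.

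The other dpr summits ranked lower. An intronic summit in dpr18 (X, 16068254), 4.52 kb from the start, ranked 5475 (replicates 5587, 5498 and 5924). A summit in an intron of dpr13 (2R, 18005647) ranked 5829 (5991, 6717 and 6166), and it lay within the noncoding gene lncRNA:CR44419, 252 bp from its start. In dpr10, which encodes a partner of DIP-alpha, a 5′ UTR summit 77 bp from the start (3L, 10186031) ranked 6214 (6677, 5654 and 7360). In dpr8, one summit 661 bp inside the gene (X, 14322887) ranked 7146 (7198, 7681 and 8240), and another 128 bp upstream (14322098) ranked 7434 (7724, 9416 and 7255). Of these 5 summits, those of dpr10 and dpr8 were at the gene's own start, and those of dpr18 and dpr13 were inside introns. All 5 held a GTGTGT within 100 bp.

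The DIP genes, whose products bind Dprs, had 1 summit in a body and 1 at a start. The DIP-alpha summit (X, 3558604) was intronic, 13.0 kb from the start of DIP-alpha, and ranked 3393 (replicates 3466, 3352 and 3826, mean 3548.0 ± 247, SD). It also lay in an intron of ppk8, a channel gene nested in DIP-alpha, 792 bp from the ppk8 start. A GT run of 33 bases was centred 68 bp away, and the window printed above shows a further run on the other side of the summit. The DIP-eta summit was 297 bp upstream (2L, 5618243) and ranked 6990, with replicate ranks 6350, 8833 and 8210 (7797.7 ± 1291.8, SD). The DIP-alpha ranks were close together, and those of DIP-eta were spread over more than 2000 places.

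No beat gene, of the family that binds Side proteins, had a thresholded summit within 1 kb of its start, and the nearest was 11.1 kb away. The 5 beat summits all lay deep in introns. The highest, in beat-Ib (2L, 15913487), ranked 538 (replicates 567, 527 and 532, mean 542 ± 21.8, SD) and was 48.9 kb from the beat-Ib start and 929 bp from that of lncRNA:CR44868. It was the highest summit in any of the 54 gene bodies and had no GTGTGT within 100 bp, though its window holds 2 separate alternating runs of 6 bases in the other phase. Further along the same intronic stretch lay summits of rank 3688 (3680, 4291 and 3937) and 6198 (8556, 5355 and 5774), also without GTGTGT. Both were nearer to the start of lncRNA:CR44867 than to that of beat-Ib, at 348 and 2658 bp. In beat-IIIc, summits 11.1 and 18.0 kb from the start (17249605 and 17242718 on 2L) ranked 6394 (6754, 6580 and 7086) and 7841 (7891, 8603 and 8573), and both had GTGTGT.

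Among the side genes, which encode the Beat-binding Sidestep family, the summits were at the starts of the shortest members. In side-IV (3R, 13450611) the summit was in the 5′ UTR 21 bp from the start and ranked 1556, with 1520, 1697 and 1688 in the replicates (1635.0 ± 99.7, SD). In side-VII (3R, 9739593) it was 386 bp inside the 5′ UTR and ranked 2730, with 2808, 2734 and 2893 (2811.7 ± 79.6, SD). The side-IV summit sits beside an alternating run of 14 bases, of which the printed window shows the last 11. The side-VII summit had neither GTGTGT within 100 bp nor a GT run of 12 bases closer than 14426 bp. The 6 side genes over 20 kb, side itself among them, had no thresholded summit.

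**Figure D3:**
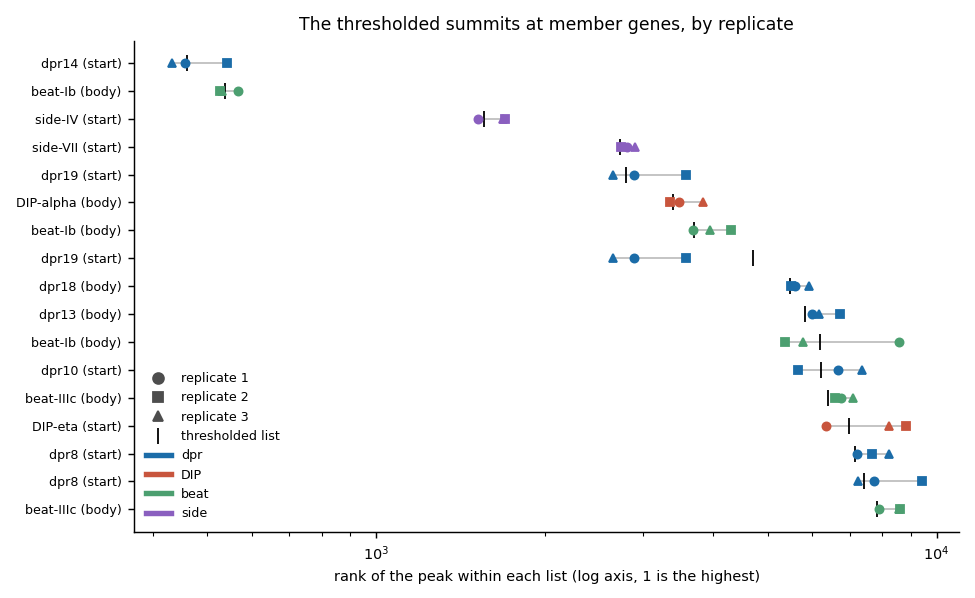
Rank of the peak at each of the 17 thresholded summits (rows, named by gene and by whether the summit is within 1 kb of the start) in the list of replicate 1 (circle), 2 (square) and 3 (triangle) and in the thresholded list (bar), on a log axis where 1 is the highest peak. Only the dpr14 and beat-Ib peaks stand below rank 1000, and the 2 dpr19 summits share their replicate peaks.

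Counting both kinds, there were 17 thresholded summits at these genes, of which 2 were among the 1000 highest and 7 among the 3956 highest. The median rank was 5475, beside 3957 for all 7913 summits. Of the 17, 8 were nearer to the start site of another gene than to that of the gene they were counted for. Of the 14 in gene bodies, 8 were in introns and 6 in 5′ UTRs. None was in a coding exon or a 3′ UTR. For these classes, and for nearness to another gene's start, no share over all thresholded summits is at hand.

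GTGTGT, read on either strand as GTGTGT or ACACAC, was within 100 bp of 9 of the 14 summits in gene bodies (64.3%). The share was 64.6% over the thresholded summits in all protein-coding gene bodies and 63.3% over all 7913 thresholded summits. It was near 7 of the 9 start-site summits (77.8%), for which no share over the start-site summits of all genes is at hand. The 5 body summits without it were the 3 of beat-Ib, that of side-VII and the lower one of dpr19.

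Alternating GT runs of 12 or more bases were counted 283 times in the 54 bodies, 11.2 per 100 kb, beside 7.82 in all protein-coding bodies and 10.4 in the other genes over 20 kb. Longer runs were less dense than in those long genes: runs of 20 or more bases stood at 2.22 per 100 kb, beside 2.46 there and 1.69 in all bodies, and runs of 30 or more at 0.119, beside 0.247 and 0.168. A run of 12 or more bases was held by 45 of the 54 genes, and a run of 20 or more bases by 20. No share over all genes is at hand for these counts, and a long gene has more room for a run. Of the 54 genes, those with most runs were dpr8 with 47, dpr6 with 28, DIP-gamma with 19, side-VIII with 18 and DIP-alpha with 17.

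The runs seldom had a summit. A thresholded summit lay within 100 bp of the centre of 9 of the 283 (3.18%), where 22.2% of the runs in all protein-coding bodies and 17.8% of those in the other genes over 20 kb had one. By family the counts were 5 of 124 in dpr, 2 of 62 in DIP, 1 of 41 in beat and 1 of 56 in side genes. By run length they were 7 of 227 for 12 to 19 bases, 1 of 53 for 20 to 29 and 1 of 3 for 30 or more. The counts of GT runs here and at start sites were chosen after values had been seen.

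The same held at start sites. A GT run of 12 or more bases lay within 1 kb of a start site of 19 of the 54 genes (35.2%). It did so at 11.0% of all protein-coding genes and 38.8% of the other genes over 20 kb. Of the 19, 6 (31.6%) had a thresholded summit there, where 71.5% of all protein-coding genes with such a run had one. The 6 were dpr8, dpr10, dpr14, dpr19, DIP-eta and side-IV. Over 20 kb it was 2 of 12 (16.7%), beside 77.0% of all genes of that length with a run. The 13 genes with a run at the start and no summit were dpr4, dpr5, dpr11, DIP-delta, DIP-gamma, DIP-theta, beat-Ia, beat-IIa, beat-IV, beat-VI, side, side-II and side-VI. Without a run, 1 of 35 genes (2.86%; side-VII) had a start-site summit, beside 16.9% of all protein-coding genes without one.

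**Figure D4:**
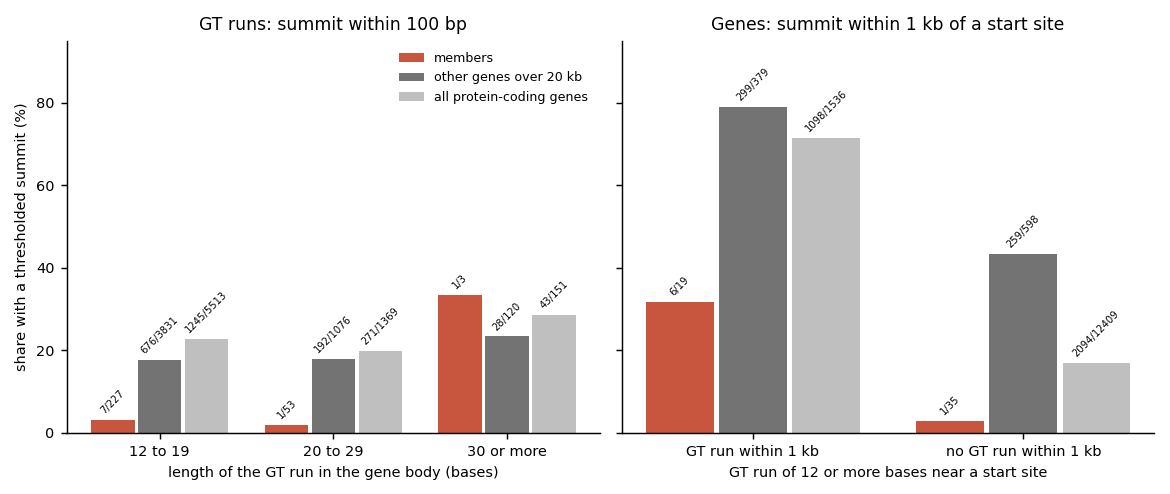
Left, share of GT runs in gene bodies (y axis, percent) with a thresholded summit within 100 bp, by run length in bases (x axis); right, share of genes with a thresholded summit within 1 kb of a start site, for genes with and without a GT run of 12 or more bases there. Counts stand over the bars, and the red bars of the dpr, DIP, beat and side genes are the lowest of each set except at runs of 30 or more bases, where they rest on 3 runs.

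Weaker peaks were there at part of the genes. In the list called on the pooled alignments, which held 30000 peaks, 18 of the 54 genes (33.3%) had a start-site summit, where 42.7% of all protein-coding genes had one. In the body 27 of the 54 had one, a larger share than the 31.9% of all genes. Over 20 kb it was 20 of 36 (55.6%), where 84.2% of all genes of that length did. In the full replicate lists the last count was 20, 21 and 21 (57.5% ± 1.6, SD, n = 3), beside 84.9% ± 0.171 of all long genes. In the pooled list the 54 genes thus had the larger share with a body summit when genes of all lengths were counted, and the smaller share among genes over 20 kb.

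The side genes held the most weak peaks for their length of the 4 families. In the pooled list 7 of the 8 had a summit in the body, beside 31.9% of all protein-coding genes. Over 20 kb it was 5 of 6 side genes (83.3%), close to the 84.2% of all genes of that length. The smaller share among long genes was thus that of the other families: 7 of 11 dpr (63.6%), 4 of 7 DIP (57.1%) and 4 of 12 beat genes (33.3%). The side bodies held 55 pooled summits, 13.2 per 100 kb. The density was 4.16 in dpr, 4.76 in beat and 5.51 in DIP genes and 24.3 over all protein-coding bodies. In side itself, the gene for the guidance cue on the motor route, 14 pooled summits stood in 62.4 kb, the highest at rank 9374 (replicates 9216, 11379 and 10532), 10.9 kb from the start and within 3 bp of the centre of a 25-base GT run. In side-V 16 stood in 41.0 kb (highest 9142; replicates 8879, 9847 and 10735). No thresholded summit lay in either. Some of the pooled summits in side and side-V lay in peaks that overlap each other, so these are counts of summits and not of separate sites. Over the genome the pooled list held 30000 peaks in 27734 distinct intervals. Of the 55 summits in side genes, 2 were thresholded (3.64%), beside 28.0% over all protein-coding bodies.

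Other genes with weak peaks only were dpr2, dpr3, dpr4, dpr5, dpr6, dpr9 and dpr12, DIP-beta, DIP-gamma and DIP-theta, beat-IIa and beat-IIb, and side-III, side-VI and side-VIII. At DIP-gamma, whose product binds Dpr11, Dpr15, Dpr16 and Dpr17, 12 pooled summits lay in the body, and the highest near it stood 165 bp upstream at rank 8994 (replicates 9267, 11755 and 8853), 4 bp from the start of lncRNA:CR45669. At dpr9 a 5′ UTR summit 41 bp from the start ranked 9765 (11019, 10723 and 10270), and at dpr4 one 267 bp from the start ranked 10080 (7984, 14427 and 14271). The replicate ranks of dpr4 were the widest of these. The 57-base GT run in an intron of DIP-beta, the longest in any of the 54 genes, had a pooled summit 147 bp from its centre and the nearest thresholded one 34.9 kb away. All told the 54 bodies held 155 pooled summits with a median rank of 17380. Of these, 79 (51.0%) had a summit within 100 bp in all 3 replicate lists, a share that was not counted over all gene bodies. GTGTGT was near 61.9% of the 155, beside 42.2% of pooled summits in all gene bodies. The GT runs with a pooled summit within 100 bp were 57 of 283 (20.1%), where 48.1% of runs in all protein-coding bodies had one.

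No summit of the thresholded or the pooled list was found at 25 of the 54 genes (46.3%), where 55.0% of all protein-coding genes had none. Over 20 kb it was 15 of 36 (41.7%), where 15.2% of all genes had none. The 25 were dpr1, dpr7, dpr11, dpr15, dpr16, dpr17, dpr20 and dpr21, then DIP-delta, DIP-epsilon, DIP-iota, DIP-kappa, DIP-lambda and DIP-zeta, then beat-Ia, beat-Ic, beat-IIIa, beat-IIIb, beat-IV, beat-Va, beat-Vb, beat-Vc, beat-VI and beat-VII, and side-II. Beat genes made up 10 of the 25, and 10 of the 14 beat genes (71.4%) were without any summit, as were 8 of the 12 beat genes over 20 kb. The lists end at a fixed number of peaks and the read depth is unknown, so a peak below that limit was not detectable here.

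The start sites lay far from the nearest thresholded summit. The median distance was 48.3 kb over the 54 genes, beside 7.26 kb over all protein-coding genes and 0.465 kb over the other genes longer than 20 kb. By family it was 17.8 kb for dpr, 26.5 kb for DIP, 48.3 kb for side and 90.1 kb for beat genes. The farthest was dpr21, at 1677.9 kb, and DIP-lambda followed at 673 kb. The largest distance in the beat family was 164 kb, at beat-IIa. Distances were taken from the start site nearest to a summit, and the other genes over 20 kb had a median of 2 start sites, beside 1.

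**Figure D5:**
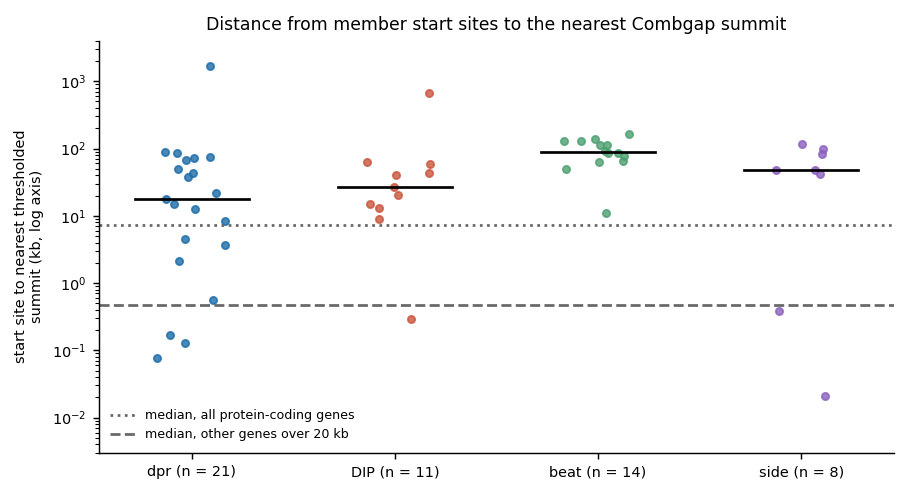
Distance in kb (log axis) from the start sites of each gene to the nearest thresholded summit, 1 point per gene, by family; bars are family medians, and broken lines the medians of all protein-coding genes (7.26 kb) and of the other genes over 20 kb (0.465 kb). The 14 beat points all lie at 11.1 kb or more, while dpr, DIP and side points spread from below 1 kb to beyond 50 kb.

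Neighbouring members form 8 stretches, and these ranged from no summit to many weak ones. The beat-Va to beat-Vc stretch on 3R (12746036 to 12934813, 189 kb) held no thresholded and no pooled summit, with 4 other protein-coding genes in it. The beat-IIa and beat-IIb stretch (134 kb) held 0 thresholded and 3 pooled summits, and the dpr15 and dpr17 stretch (63.7 kb) 0 and 1. The beat-Ia to beat-Ic stretch on 2L (177 kb) held 3 thresholded summits, those of beat-Ib, and 7 pooled ones. From beat-IIIa to beat-IIIc (288 kb) there were 2 thresholded and 16 pooled summits. In the dpr4 and dpr5 stretch (43.0 kb) none was thresholded and 11 were pooled, and the DIP-eta and DIP-theta stretch (56.8 kb) held 1 and 8. Between dpr6 and dpr10 (3L, 211 kb), 1 thresholded and 4 pooled summits were found, and the former is that at the dpr10 start. The printed dpr6 run lies in this stretch, 122 kb from the nearest thresholded summit and 30.9 kb from the nearest pooled one. The dpr11 run was 90.4 kb from any thresholded and 84.3 kb from any pooled summit, and the DIP-eta run 13.1 and 3.82 kb.

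The X carried 5 of the 54 genes, and 4 of those, dpr8, dpr14, dpr18 and DIP-alpha, were among the 12 with a thresholded summit. The fifth, DIP-beta, had weak peaks only. No share of all protein-coding genes of the X with a summit is at hand to set beside this count. The dpr14 and DIP-alpha summits were nearer to the starts of spidey and ppk8 than to those of the genes they were counted for. The density in the 5 bodies was 1.19 thresholded and 16.7 pooled summits per 100 kb, beside 8.54 and 34.9 over all protein-coding bodies of the X. In the 49 autosomal genes it was 0.485 and 4.98, beside 6.41 and 21.9. Both groups were below the genes of their own chromosomes, and the autosomal genes by the larger ratio. This split was made after values had been seen, and the dpr14 and dpr18 bodies are short.

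Partners in recognition were compared over 14 pairs, made of 21 genes and written from general knowledge of binding studies, with no publication at hand to check them against. None of the 14 pairs had a start-site summit at both genes, and 1, DIP-alpha with dpr10, had a summit of any kind at both. These counts say nothing about partners as such: 7 of the 54 genes had a start-site summit, 5 of the 7 are in no listed pair, and no beat gene had one, so no Beat and Side pair could have both. Of the 21 genes, dpr10 and side-IV had a start-site summit and DIP-alpha one in its body. The other partner of DIP-alpha, dpr6, was 68.6 kb from the nearest summit. For DIP-gamma the distance was 20.6 kb and for its partners dpr11, dpr15, dpr16 and dpr17 it was 75.1, 86.0, 37.7 and 89.3 kb. DIP-delta and dpr12 were at 58.1 and 72.9 kb. Of the genes in these DIP pairs, dpr10 alone was within 1 kb of a summit.

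Among the Beat and Side pairs, side-IV stood 21 bp from its summit, and its partners beat-IIa and beat-IIb stood 164 and 129 kb away. For side and beat-Ia, the pair that steers motor axons, the distances were 119 and 136 kb. They were 41.5 and 112 kb for side-II and beat-IV. For side-VI the distance was 83.0 kb, and for its partners beat-Va, beat-Vb and beat-Vc it was 129, 66.2 and 63.4 kb. Among these genes, side-IV alone was within 1 kb of a summit.

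Other adhesion and guidance genes were read in the same way from 2 lists made from textbook knowledge. The lists were not chosen by tissue, and no expression was measured. They are therefore not matched to the dpr, DIP, beat and side genes for expression in neurons. Of 26 other immunoglobulin genes for adhesion and guidance, 15 (57.7%) had a start-site summit and 17 (65.4%) one in the body, with a density of 4.55 per 100 kb. Dscam1, the receptor gene known for its many splice forms, held summits of rank 204 at a start and 123 in the body, and Lar, a receptor phosphatase gene, one of rank 160. Of 17 partner genes without immunoglobulin domains, 8 (47.1%) and 9 (52.9%) did, with 2.96 per 100 kb; caps had a start-site summit of rank 277 and Ten-a 12 summits in its body. Over 20 kb, a summit lay in the body of 14 of 20 and 7 of 12 genes of the lists, beside 6 of 36 dpr, DIP, beat and side genes. Both lists also held genes with none. In the first these were Dscam2, Dscam3, robo3, fred, Lac, klg, bdl and fipi. In the second they were Nlg2, Nlg3, CadN2, Toll-7 and haf. No test of the difference between lists was made.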

How the data were processed

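Combgap ChIP-seq in 3 replicates of 1 group gave 5 peak lists on dm6: 1 per replicate, 1 from the pooled alignments and 1 thresholded by IDR, per the deposited text listings. Peak signal was deposited by the authors as their caller gave it against the control. Its scale differs between lists, so it served as a rank within a list. The authors deposited −log10 q values, which were not used further. Summits are the authors' deposited offsets in bp from the peak start (the other unit). The settings and tools for alignment, peak calling and IDR, like the nature of the control, were not given in the sources used here. Depth is unknown, so no counting precision can be given. The replicate, pooled and thresholded lists held 30000, 30000 and 7913 peaks. Replicate labels do not say whether embryos came from separate collections, so an SD measures the spread between these samples.

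Genes came from Ensembl release 115 (BDGP 6.54), sequence from RefSeq's copy of the same release 6 assembly; no peak ran past a chromosome end. Python 3.11.15 with numpy 2.4.6, pandas 2.3.3, scipy 1.17.1 and matplotlib 3.10.9 was used. A gene was counted with a summit within 1 kb of any annotated start, or inside its body, and overlapping bodies were merged for densities. A replicate peak was matched by overlap of at least 1 bp. Counting was tested on simulated data. No significance test was made. The genes, lists and limits were chosen with earlier results of these data known. Named with full values were up to 12 genes with the highest start-site and body summits, the partner pairs, and all genes without a summit; sequences were shown for the highest summits outside 2R, 1 per gene, and for long GT runs without one. Alternatives were other distances, the 3956 highest thresholded summits, merged regions, the pooled list, other motif windows and each replicate left out. Bodies extended by 2 kb and the omission of summits near other genes' starts were also run.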

Additional observations from a re-analysis of the deposited data

How the results depend on the processing

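The counts moved with how many peaks were counted, with the omission of start sites and little with merged regions. With the 3956 highest thresholded summits, 4 of the 54 genes had a start-site summit (16.3% of all genes) and 5 a body summit (12.5%), the body summits were 6, the density was 0.238 per 100 kb (3.52 over all gene bodies) and 2 long genes had a body summit (47.1%). With the pooled list they were 18 (42.7%), 27 (31.9%), 155, 6.15 (24.3) and 20 (84.2%). The full replicate lists gave 20, 21 and 21 long genes (84.8%, 84.8% and 85.1%). With the 2000 or 10000 highest peaks of every replicate, 2 (10.1%) and 8 genes (23.2%) were counted in place of 4. Without summits within 1 kb of another gene's start, 9 of the 14 body summits were left, and the density away from starts was 0.173 (3.78). In the pooled list the share of genes with a body summit was above that of all genes, and with the 3956 highest summits below it; the cause was not tested.

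Start-site distances of 500 bp, 2 kb and 5 kb gave 6, 7 and 10 genes (18.3%, 27.5% and 41.6%), and merged regions gave 7 and 10. Bodies extended by 2 kb gave 13 genes (33.1%). Without summits within 1 kb of another gene's start, 8 genes (12.9%) and 4 of the long genes (63.2%) had a body summit. Leaving out repeat-rich genes gave 6 of 33 long genes (69.6%). The long-gene alternatives and the density without DIP-lambda and dpr21 were added after seeing the data. Without each replicate in turn, 4 genes stayed among the 5000 highest, and the mean ranks ran from 444 to 500 for dpr14, 530 to 550 for beat-Ib and 1604 to 1692.5 for side-IV. GTGTGT was near 57.1% and 78.6% of the body summits within 50 and 250 bp (47.0% and 80.6% of all summits), 5 GT repeats were near 7 of 14 (29.5% of all), and GTGTGT was near 3 of the 6 among the 3956 highest (70.5% of all). No partner pair had a summit at both starts in any alternative run. No paired analysis was possible because the samples form 1 group with no contrast.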
